A study of Mus musculus with 16 samples.

Results

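Organoids of the mouse proximal colon that carried a control guide were compared with and without the factors that keep crypts growing. Organoids are epithelial cultures grown from crypts in a gel. The members are the 4 libraries, of 16 in all, whose titles give proximal colon and Scramble-sgRNA: 2 in WENR-plus and 2 in WENR-minus medium, replicate 1 and replicate 2 of each. WENR-plus holds Wnt3a, EGF, Noggin and R-spondin 1, partly from conditioned media, and WENR-minus lacks all of them, so the effects of the single factors cannot be told apart. The cells came from female mice 8 weeks of age, bred from a homozygous tdTomato reporter parent (allele Gt(ROSA)26Sortm9(CAG-tdTomato)Hze on B6;129S6) and a heterozygous Cre-inducible BrafV600E parent (B6.129P2(Cg)-Braftm1Mmcm/J), and were heterozygous for both alleles. No Cre step is described for these cultures. Braf mRNA stood at 32.4 and 34.8 CPM in WENR-plus and at 34.8 and 32.1 CPM in WENR-minus. The allele lies at the Braf locus and gives normal Braf before Cre, so these counts cannot show whether it had recombined. CPM are counts scaled to a common library size after TMM scaling, which corrects for differences in composition between libraries. All groups had received Cas9 and a guide by lentivirus and had passed 2 weeks of drug selection. In the fourth month all received WENR-plus for 2 days, after which either medium was given for 3 days. Scramble-sgRNA cultures were selected populations with no cloning step described, whereas the Cdx2-sgRNA cultures used below for comparison are single-cell clones in which each Cdx2 allele carries a frameshift. According to the study's text, sampling was early because control organoids in WENR-minus later differentiate and disintegrate, and floating dead cells were discarded at harvest.

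In the colon, Wnt ligands from cells around the crypt base bind Frizzled and Lrp receptors and stabilise beta-catenin, which joins TCF and LEF factors on target genes. R-spondins strengthen the signal through Lgr receptors by removing the ubiquitin ligases Rnf43 and Znrf3 from the cell surface, EGF drives division, and Noggin holds back BMP signals. Away from these factors, crypt cells leave the cycle and become absorptive colonocytes or secretory cells, chiefly goblet cells that make mucus.

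The depth of the 4 libraries was 15997895 and 14079566 estimated counts in WENR-plus and 16832851 and 18922143 in WENR-minus, within the range of the series (12465194 to 18922143). Log CPM correlated at 0.972 across genes between both WENR-plus libraries and at 0.971 between both WENR-minus libraries, against 0.925 and 0.942 between the media in replicates 1 and 2. Long noncoding RNA took 2.54% and 2.89% of counts in WENR-plus and 2.07% and 2.37% in WENR-minus, and mitochondrial ribosomal RNA 15.4% and 21.2% against 17.6% and 17.8%. The nuclear RNAs Malat1 and Neat1 took 0.224% and 0.437% of counts outside mitochondrial ribosomal RNA in WENR-plus and 0.600% and 0.449% in WENR-minus. This share was highest in WENR-minus replicate 1. The part of these shares in the results was not tested. The labelled tissue was checked first. The 8 epithelial markers summed to 5106 and 5364 CPM in WENR-plus and 15340.5 and 14849.5 CPM in WENR-minus, and 6 of them rose, among them the keratins Krt8 (2.00 on the log2 scale) and Krt19 (1.95). Markers of other cell types were near 0. Of 10 fibroblast markers 2 had enough counts to be tested and 6, including Col1a2, Col3a1, Dcn and Lum, had no read in any of the 4 libraries. Of 9 immune markers 4 were tested, of 6 endothelial markers 2 and of 7 nerve and muscle markers 3, with Cd79a, Adgre1, Cldn5, S100b and Cnn1 at 0, and none of these was called. Summed levels in WENR-plus and then WENR-minus were 4.78 and 1.24 against 12 and 3.34 CPM for fibroblast markers (mostly Vim), and 9.41 and 6.51 against 7.25 and 3.60 CPM for immune markers. They were 8.41 and 4.56 against 3.84 and 3.18 CPM for endothelial markers, and 2.72 and 2.72 against 0.682 and 1.35 CPM for nerve and muscle markers. Their part in the results was not tested.

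Withdrawal of the factors lowered stem cell, Wnt target and cell cycle genes and raised genes of the absorptive surface. A gene was called at a Benjamini-Hochberg adjusted p under 0.05 in edgeR's quasi-likelihood test together with a log2 fold change (WENR-minus against WENR-plus) beyond 1 in size, and rising and falling are stated below for called genes. Of 15289 genes tested, 1335 rose (8.73%) and 1260 fell (8.24%), together 17.0%. With mitochondrial ribosomal RNA removed from the counts, 1429 rose and 1194 fell. The median change over all genes tested was -0.06. The counts of 2590 of these 2595 genes did not overlap between the media, but 33.6% of all tested genes had both WENR-minus libraries above both WENR-plus libraries and 35.9% had them below. Changes beyond 3 on the log2 scale were called for 204 genes that rose and 123 that fell. Among classes of genes, protein-coding genes held 1281 of the genes that rose and 1105 of those that fell. Of 521 processed pseudogenes, whose reads can belong to their parent genes, 2 rose and 26 fell, and of 362 long intergenic RNAs 12 rose and 30 fell, near or under the shares of all tested genes. Scaling by library totals alone left 749 genes that rose and 2206 that fell and moved the median of all genes to -0.40, so 25.3% of the calls were then higher in place of 51.4%.

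**Figure D1:**
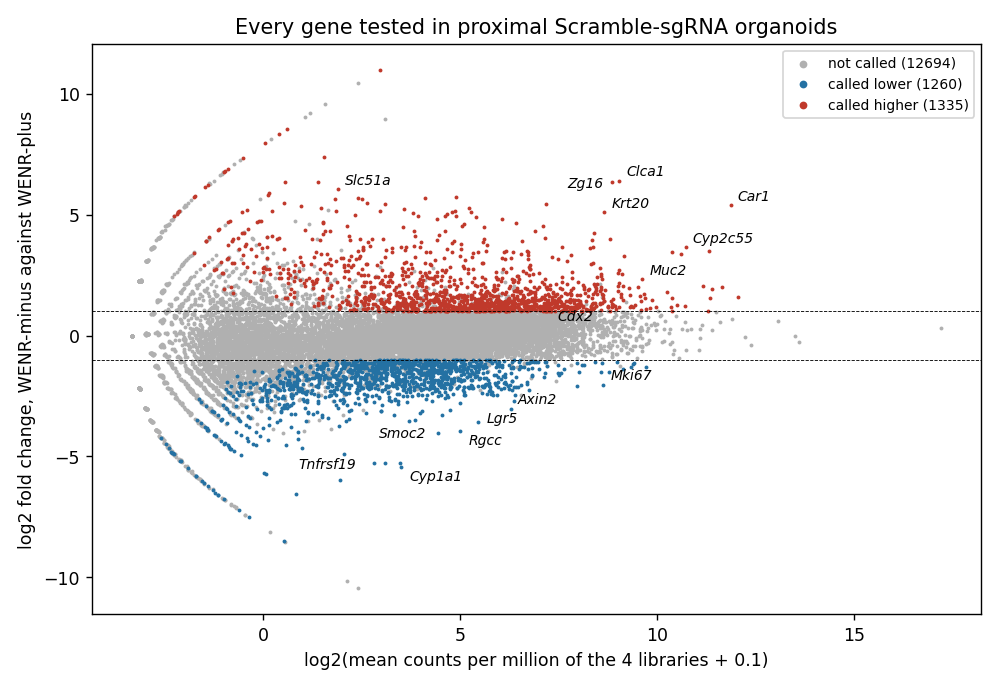
Change of every tested gene against its level. The x axis is the log2 of the mean CPM of the 4 libraries plus 0.1, the y axis is the log2 fold change of WENR-minus against WENR-plus, red and blue points are the 1335 genes that rose and the 1260 that fell, and dashed lines mark changes of 1. Car1 and Zg16 lie far above the lines, Lgr5, Smoc2 and Cyp1a1 far below, and Cdx2 lies between them.

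The replicates differed in how far they moved. WENR-minus replicate 1 lay farther from the WENR-plus libraries than replicate 2 in 992 of the 1260 genes that fell (78.7%) and in 999 of the 1335 that rose (74.8%). Without that library 944 genes rose and 596 fell. Without WENR-plus replicate 1 or replicate 2, 815 and 802 genes fell. That order held for 12 of the 12 stem cell genes that fell and for 20 of the 25 colonocyte genes that rose, but for 2 of the 7 goblet cell genes that rose. In bulk RNA, fewer cells of a type and less RNA per cell cannot be told apart.

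Markers of the stem cells at the crypt bottom fell. Of 19 tested genes of that list, 12 fell and 1 rose, with a median change of -1.52. Lgr5, the R-spondin receptor that marks these cells (chr10:115450311-115587780), stood at 83.9 and 76.6 CPM in WENR-plus and at 3.22 and 10.1 CPM in WENR-minus, and fell by 3.58 on the log2 scale (SE 0.66, adjusted p = 0.00243). Ascl2, the transcription factor that sets their identity, had 7.26 and 8.28 CPM against 0.372 and 0.938 CPM and fell by 3.53. Smoc2, a secreted matrix protein, had 31.2 and 50.4 CPM against 0.682 and 4.27 CPM and fell by 4.02 (SE 0.81, adjusted p = 0.00401). In all 3 genes the WENR-minus libraries lay well below both WENR-plus libraries, with replicate 1 the lowest. Sox9, a progenitor transcription factor, fell by 2.21, the adhesion receptor Cd44 by 1.36, the MYC target Cdca7 by 2.14 and the RNA-binding protein Mex3a by 2.69. Tnfrsf19, a receptor of the TNF family that Wnt signals induce, had 15.9 and 16.9 CPM against 0.186 and 0.625 CPM and fell by 5.28, but its call was lost without WENR-minus replicate 1. Not all crypt genes followed. Ephb2, the ephrin receptor that sorts cells along the crypt, had 184 and 188 CPM in WENR-plus and 120.0 and 155 CPM in WENR-minus, a change of -0.44 (SE 0.21, adjusted p = 0.149). Prom1, a membrane protein that stem cells share with other crypt cells, went the other way, from 449 and 402 CPM to 1392 and 1087 CPM, and rose by 1.54 (SE 0.20, adjusted p = 0.000497). Olfm4, a stem cell marker of the small intestine, had no read in the 4 libraries.

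Direct targets and feedback genes of the Wnt pathway fell with them: 14 of 21 tested genes fell, 1 rose and the median was -1.99. The lists overlap, since Lgr5, Ascl2 and Tnfrsf19 are in both. Axin2, the scaffold that returns beta-catenin to destruction and the usual reporter of the pathway (chr11:108920349-108950783), had 131 and 149 CPM in WENR-plus and 10.8 and 23.1 CPM in WENR-minus, and fell by 3.04 (SE 0.35, adjusted p = 0.000280). The pathway's own transcription factors Lef1 and Tcf7 went from 27.9 and 25 CPM to 2.73 and 2.03 CPM and from 11.9 and 10.8 CPM to 0.682 and 3.34 CPM, and fell by 3.47 and 2.48. The ubiquitin ligases that remove Frizzled, Znrf3 and Rnf43, both fell by 1.99, and Nkd1, which restrains Dishevelled, fell by 2.61. Myc, the growth regulator, went from 47.7 and 40.5 CPM to 11.3 and 14.5 CPM and fell by 1.77, a call lost without replicate 1 of either medium. Notum and Apcdd1, secreted or membrane Wnt inhibitors, had changes of -1.79 (adjusted p = 0.0562) and -2.20 (adjusted p = 0.0518) and were not called. The member that rose was Wif1, a secreted Wnt inhibitor, from 0.334 and 0.414 CPM to 2.91 and 2.14 CPM.

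Receptors of the pathway were listed apart. Of 17 receptors and secretion factors, a list added after values were seen, 1 rose and 1 fell (5.88% each, under the shares of all tested genes), and the median was -0.09 (0.03 with at least 10 counts required in every library). The gene that rose was Fzd5, a Frizzled receptor of the intestinal epithelium, which stood at 22.5 and 23.0 CPM and at 103 and 112 CPM and rose by 2.24 (SE 0.15, adjusted p = 3.57e-05). Fzd6, another Frizzled receptor, fell by 1.33, a call lost without WENR-minus replicate 1. On the per-length TPM scale Lgr4, the broader relative of Lgr5, was at 32.5 and 24.4 TPM in WENR-plus beside 31.4 and 25.4 TPM for Lgr5. In WENR-minus Lgr4 was at 35.6 and 41.3 TPM and Lgr5 at 0.871 and 3.21 TPM. The change of Lgr4 was 0.76 (adjusted p = 0.00250), under the fold that a call needs.

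Sp5, a transcription factor induced directly by beta-catenin, had 45 and 27 reads in WENR-plus and 3 and 0 in WENR-minus, which makes it at least 11-fold lower. Its promoter is shown because it holds the letters that TCF and LEF factors bind. The 250 bases before the RefSeq start site of Sp5 (GRCm38.p6, chr2:70474673-70474922, plus strand) are given 5′ to 3′ with those letters in capitals.
Sp5: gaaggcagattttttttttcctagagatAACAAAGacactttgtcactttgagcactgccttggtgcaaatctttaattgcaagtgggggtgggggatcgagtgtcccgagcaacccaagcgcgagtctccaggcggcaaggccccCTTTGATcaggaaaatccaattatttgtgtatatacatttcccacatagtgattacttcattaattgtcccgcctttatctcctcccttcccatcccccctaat
On both strands the search took CTTTGAA or its variant CTTTGAT, together with the variant spelled CTTTGTA and the variant spelled CTTTGTT. They were found in 2 of 15 Wnt target promoters with a RefSeq window (13.3%), in 0 of 15 of the stem cell list and in 10.3% of the 10549 promoters of all tested genes. A window of this length leaves out introns and distant enhancers.

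**Figure D2:**
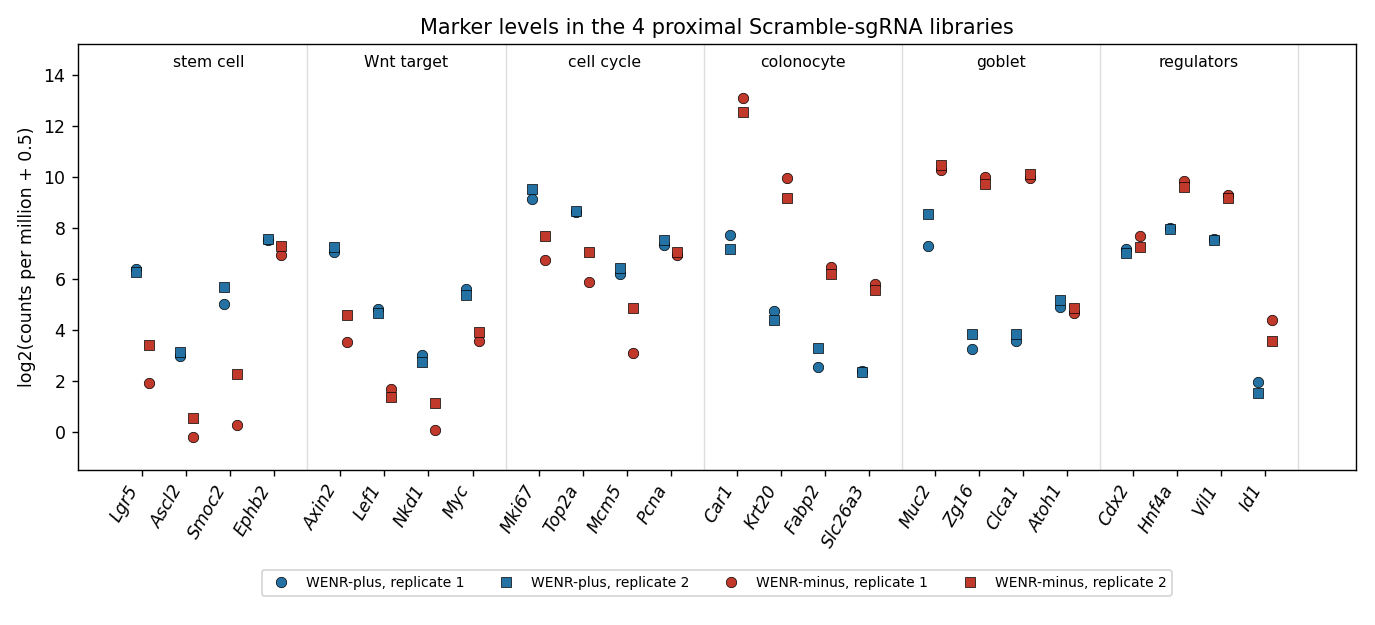
Level of single markers in each of the 4 libraries as the log2 of CPM plus 0.5. Blue is WENR-plus and red WENR-minus, circles are replicate 1 and squares replicate 2. Lgr5, Axin2 and Mki67 lie lower and Car1, Krt20 and Zg16 higher in both WENR-minus libraries, whereas Ephb2, Pcna, Atoh1 and Cdx2 lie close together.

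Most genes of the cell cycle fell. Of 43 tested S phase genes 35 fell, of 54 G2M genes 48 fell, and none rose, with medians of -1.99 and -2.00. The G2M genes summed to 5954 and 6303 CPM in WENR-plus and to 2305 and 3318 CPM in WENR-minus, and the S phase genes to 2143 and 2369 CPM and to 608 and 949 CPM. In 35 of the 35 S phase genes and 46 of the 48 G2M genes that fell, WENR-minus replicate 1 was below replicate 2. Mki67, the chromosome coat protein used to mark cycling cells, had 553 and 725 CPM against 105 and 203 CPM and fell by 2.05 (SE 0.41, adjusted p = 0.00370). Top2a, the topoisomerase of mitosis, went from 395 and 407 CPM to 58.0 and 131 CPM, and Cdk1 and its partner Ccnb1 fell by 2.13 and 2.09. The replicative helicase subunits Mcm5 and Mcm6 fell by 2.12 and 2.24, the checkpoint adaptor Clspn by 2.76 and the helicase Blm by 2.61. Pcna, the sliding clamp of replication and repair, was an exception at 158 and 183 CPM against 121 and 130.0 CPM (-0.44, adjusted p = 0.115).

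Histone genes, whose mRNA is made during replication and mostly lacks poly(A) tails, were readable because the libraries were made from total RNA. Of 61 clustered histone genes, a list added after values were seen, 37 fell, none rose and the median was -1.56. Hist1h2bq went from 24.8 and 25.9 CPM to 3.04 and 6.31 CPM, and the linker histone Hist1h1b from 63.3 and 75.5 CPM to 11.7 and 28.1 CPM. These genes are near copies of each other, so the split of reads among them is uncertain.

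Promoters of the cycle genes were read for the letters below. Such shares are fixed by the choice of genes and would be the same whatever the medium did. The E2F letters, TTCCCGC or its variant TTGGCGC, together with the variant spelled TTCGCGC and the variant spelled TTGCCGC, stood on either strand in 16 of 31 S phase promoters (51.6%) and in 14% of all. CCAAT, the NF-Y box, stood in 36 of 47 G2M promoters (76.6%) and 36.7% of all, and TTTGAA, the cell cycle homology element, in 19 of 47 (40.4%) and 11% of all. TTTGAA is also contained in the TCF letters CTTTGAA. The same TTTGAA stood in 5 of 15 enteroendocrine promoters (33.3%). Over the genes that fell, wherever they are listed, the shares were 20.2% for E2F, 46.5% for NF-Y and 15.5% for TTTGAA. Dtl, which targets licensing factors for destruction in S phase, and Ckap2, a spindle protein, show both kinds. Dtl stood at 42.1 and 41.1 CPM against 5.39 and 8.44 CPM (fell by 2.58, SE 0.35, adjusted p = 0.000575), and Ckap2 at 53.9 and 41.1 CPM against 3.53 and 7.76 CPM (fell by 3.06, SE 0.45, adjusted p = 0.000851). Their windows are chr1:191575545-191575794 and chr8:22185820-22186069, both on the minus strand, from the same RefSeq table, with E2F letters in capitals for Dtl and TTTGAA and the reversed CCAAT box in capitals for Ckap2.
Dtl: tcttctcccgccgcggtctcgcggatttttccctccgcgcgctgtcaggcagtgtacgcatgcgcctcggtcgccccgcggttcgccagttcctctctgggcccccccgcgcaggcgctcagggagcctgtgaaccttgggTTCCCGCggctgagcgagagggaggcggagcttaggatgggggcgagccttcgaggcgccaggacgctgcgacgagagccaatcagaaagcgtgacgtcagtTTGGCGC
Ckap2: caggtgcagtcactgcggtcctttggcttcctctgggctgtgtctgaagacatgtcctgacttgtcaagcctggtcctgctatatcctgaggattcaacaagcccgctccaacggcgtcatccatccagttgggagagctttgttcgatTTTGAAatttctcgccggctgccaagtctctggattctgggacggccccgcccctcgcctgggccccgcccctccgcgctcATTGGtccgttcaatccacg
A match of letters is a description and not a site shown to be bound.

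Among cyclins and inhibitors of their kinases, 4 of 24 tested genes rose and 11 fell. Cdkn1a, the p21 inhibitor, went from 25.2 and 21.6 CPM to 98.1 and 88.7 CPM and rose by 2.00 (SE 0.21, adjusted p = 0.000212). The inhibitors Cdkn1c and Cdkn2b rose by 2.48 and 2.66, the latter from 26.6 and 26.2 CPM to 164 and 171 CPM. Cdkn2a, the p16 and p19Arf locus, stayed between 0.0592 and 0.677 CPM (1.46, adjusted p = 0.413). Ccnd1 fell by 1.05 (adjusted p = 0.0475), while Ccnd2 had 746 and 544 CPM against 447 and 418 CPM (-0.58, adjusted p = 0.464). The activator E2f1 fell by 1.75 and E2f2 rose by 1.06. Mxd1, which competes with Myc for its partner Max, went from 31.5 and 36.2 CPM to 744 and 548 CPM and rose by 4.25.

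Genes that build ribosomes also fell. Of 25 tested genes of ribosome biogenesis 15 fell and none rose, with a median of -1.04. The nucleolar proteins Gnl3, Nop56, Npm1 and Ncl fell by 1.70, 1.51, 1.13 and 1.08, and Npm1 stood at 888 and 971 CPM against 331 and 516 CPM. Polr1a, the large subunit of RNA polymerase I, went from 43.1 and 54.0 CPM to 19.2 and 23.8 CPM, but its change did not reach 1 without WENR-plus replicate 2. The media did not overlap in either gene, and both WENR-minus libraries lay below both WENR-plus libraries in 35.9% of all tested genes.

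**Figure D3:**
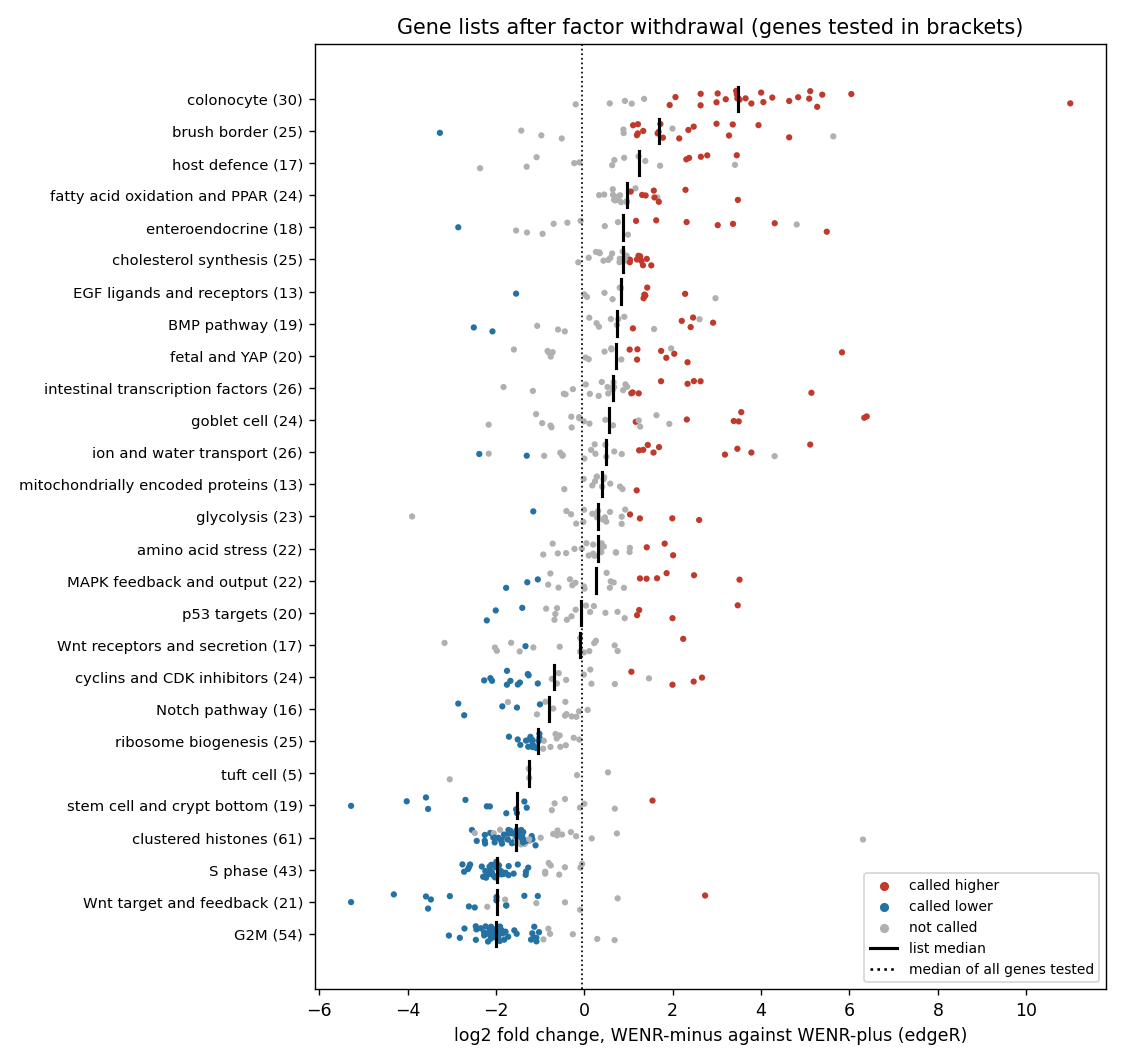
Log2 fold change of each tested member of the gene lists, WENR-minus against WENR-plus. Red points rose, blue points fell, grey points were not called, the black bar is the median of the list and the dotted line the median of all genes tested (-0.06). Colonocyte genes have the highest median (3.47) and the G2M and Wnt target lists the lowest (-2.00 and -1.99). With library totals alone the medians of the MAPK, amino acid stress and glycolysis lists lie below 0.

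The list of colonocyte genes, the absorptive cells of the surface, had the highest median of the lists. Of 30 tested colonocyte genes 25 rose and none fell, with a median of 3.47, and their summed level went from 3370.0 and 3019 CPM to 31182 and 21647 CPM. Car1, the cytosolic carbonic anhydrase of the colon (chr3:14766216-14808368), had 207 and 144 CPM in WENR-plus and 8710.2 and 5952 CPM in WENR-minus, and rose by 5.38 (SE 0.42, adjusted p = 7.02e-05). Krt20, the keratin of mature surface cells, went from 25.9 and 20.3 CPM to 995 and 579.9 CPM and rose by 5.09 (SE 0.63, adjusted p = 0.000401). Cyp2c55, a cytochrome P450 with an epoxygenase role, had 245 and 257 CPM against 2954 and 3351 CPM and rose by 3.65 (SE 0.18, adjusted p = 4.59e-06). The media are far apart in these 3 genes, and in Car1 and Krt20 replicate 1 is the higher of the WENR-minus libraries. The chloride and bicarbonate exchanger Slc26a3 rose by 3.46, the surface protein Lypd8, which keeps bacteria off the epithelium, by 3.45, and Emp1, a membrane protein, by 3.51. Fabp2, the intestinal fatty acid binding protein, had 5.30 and 9.17 CPM against 88.1 and 72.5 CPM and rose by 3.48 (SE 0.74, adjusted p = 0.00561), but without WENR-plus replicate 1 its adjusted p was 0.0508. Clca4a and Clca4b are neighbouring copies of 1 family. Clca4a had 0 reads in both WENR-plus libraries and 348 and 174 in WENR-minus, at least 95.5-fold higher, and Clca4b rose by 4.84, with the split of reads between them uncertain. Aqp8, a water channel, rose by 3.78, from 5.07 and 3.67 CPM to 104 and 16.9 CPM, so its WENR-minus replicates differ several-fold. Other carbonic anhydrases did not follow Car1. Car2 stood at 839 and 661 CPM against 786 and 526 CPM (-0.19, adjusted p = 0.646), and Car4, a membrane form, at 1.34 and 1.54 CPM against 4.46 and 1.67 CPM (1.07, adjusted p = 0.15).

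Brush border genes rose less steeply: 17 of 25 tested rose and 1 fell, with a median of 1.68. Vil1, the actin bundler villin of the microvillus core, went from 188 and 185 CPM to 619 and 576 CPM and rose by 1.68 (SE 0.19, adjusted p = 0.000286). The motor Myo1a rose by 3.94, the cadherins Cdhr5 and Cdhr2 that link microvilli tips by 2.99 and 2.47, and the scaffold Slc9a3r1 by 2.15. Mep1b, a subunit of the peptidase meprin, rose by 3.36. The exception was Anpep, aminopeptidase N, which fell by 3.27, from 5.97 and 3.79 CPM to 0.310 and 0.677 CPM. The promoters of Alpi, the intestinal alkaline phosphatase, and of Anks4b, a scaffold of the microvillus tip complex, are shown for the letters of factors that act in the differentiated intestine. Alpi had 2.91 and 0.769 CPM against 99.3 and 47.0 CPM and rose by 5.27 (SE 0.62, adjusted p = 0.000324), and Anks4b had 85.7 and 78.2 CPM against 267 and 251 CPM and rose by 1.66 (SE 0.28, adjusted p = 0.00161). Their windows are chr1:87101607-87101856 on the minus strand and chr7:120173608-120173857 on the plus strand, with the HNF4 letters CAAAGTC or CAAAGTT and the CDX letters TTTATNG in capitals, as they or their reverse complements read. Alpi holds a CDX match followed by an HNF4 match and Anks4b a reversed HNF4 match.
Alpi: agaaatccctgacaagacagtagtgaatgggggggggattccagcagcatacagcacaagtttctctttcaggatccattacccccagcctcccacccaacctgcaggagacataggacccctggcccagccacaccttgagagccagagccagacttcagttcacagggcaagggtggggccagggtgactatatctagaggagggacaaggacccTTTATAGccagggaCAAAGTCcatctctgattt
Anks4b: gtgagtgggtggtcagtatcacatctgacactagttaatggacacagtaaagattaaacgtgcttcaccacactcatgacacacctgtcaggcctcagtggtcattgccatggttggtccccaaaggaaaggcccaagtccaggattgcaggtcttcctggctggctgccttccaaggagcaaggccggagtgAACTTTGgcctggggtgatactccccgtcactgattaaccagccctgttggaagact
HNF4 letters stood in 6 of 25 colonocyte promoters (24%), 5 of 18 brush border promoters (27.8%) and 6.17% of all, and CDX letters in 5 of 25 colonocyte promoters (20%), 1 of 18 brush border promoters (5.56%) and 6.58% of all. CDX letters were as frequent in lists of other roles, with 26.7% in host defence, 22.2% in EGF family and 21.4% in fetal and YAP promoters. Over all genes that rose, the shares were 9.05% for HNF4 letters and 7.87% for CDX letters.

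Of 26 tested transporters of salt and water 9 rose and 2 fell (7.69%, near the 8.24% of all tested genes). The sodium and proton exchangers Slc9a3 and Slc9a2 rose by 5.11 and 3.18 and the chloride channel Clcn2 by 1.69. Slc12a2, the basolateral chloride importer of secreting crypt cells, went from 808 and 1028 CPM to 219 and 525 CPM and fell by 1.30, and the water channel Aqp1 fell by 2.38. Cftr, the apical chloride channel, had 159 and 146 CPM against 88.9 and 128 CPM (-0.49, adjusted p = 0.504).

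Of 24 tested goblet cell genes 7 rose, 17 were not called and none fell, with a median of 0.56. Zg16, a lectin of the mucus, went from 9.03 and 13.8 CPM to 1013 and 832 CPM (6.34, SE 1.16, adjusted p = 0.00242). The mucus protease Clca1 went from 11.1 and 13.6 CPM to 975 and 1095 CPM (6.39) and the mucus protein Fcgbp rose by 3.38. Muc2, the gel-forming mucin, stood at 153 and 375 CPM against 1241 and 1396 CPM and rose by 2.32 (SE 0.74, adjusted p = 0.0352), a call that was lost when any of the 4 libraries was left out (adjusted p from 0.0565 to 0.191). Both WENR-minus libraries are above both WENR-plus libraries in all 4 genes, as in 33.6% of all tested genes and nearly every called gene that rose. The WENR-plus replicates of Muc2 differ more than 2-fold. Atoh1, which commits cells to the secretory fate, stood at 29.1 and 35.2 CPM against 24.4 and 28.3 CPM (-0.29, adjusted p = 0.709), and Spdef, which matures goblet cells, changed by 0.12 (adjusted p = 0.939). The peptides Tff3 (1.63, adjusted p = 0.0721) and Spink4 (-0.01) were not called.

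Of 18 enteroendocrine genes 7 rose (38.9%), 1 fell (5.56%) and 10 were not called, against 8.73% and 8.24% of all tested genes. Their median of 0.88 was -0.77 when at least 10 counts were required in every library. Tph1, the enzyme of serotonin synthesis, went from 3.77 and 3.73 CPM to 35.1 and 25.8 CPM and rose by 3.02, and the granule protein Chga rose by 1.63. Pyy (4.31), Nts (5.49), Gcg (3.37) and Cck (2.31) stood below 1 CPM in both WENR-plus libraries, and Nts at 20.5 and 3.49 CPM in WENR-minus. Pyy had 9.54 and 1.35 CPM in WENR-minus, and its change was 2.33 without replicate 1 of that medium and 5.19 without replicate 2. Neurog3, the transient factor of their progenitors, went from 14.4 and 13.6 CPM to 1.12 and 2.71 CPM and fell by 2.85, a call lost without WENR-minus replicate 1. Of 16 tuft cell genes 11 had at most 3 reads in each library and none of the 5 tested was called. Of 16 Notch pathway genes 5 fell and none rose. Lfng, the glycosyltransferase that tunes Notch, fell by 1.85, while the target Hes1 stood at 38.5 and 37.1 CPM against 44.3 and 35.4 CPM.

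Of 26 tested transcription factors of the intestine, 8 rose and none fell. Hnf4a, a nuclear receptor of enterocytes, went from 254 and 249.7 CPM to 916 and 764 CPM and rose by 1.74 (SE 0.29, adjusted p = 0.00164). Cdx2, the homeobox factor that sets intestinal identity, had 142 and 127 CPM against 203 and 151 CPM (0.40, SE 0.20, adjusted p = 0.156). Klf4, a factor of post-mitotic cells, rose by 2.63, Prdm1 by 2.48, Isx, which limits vitamin A uptake, by 1.09, and Creb3l3, a regulator of lipid genes, by 5.14. Tcf7l2, the main TCF of the colon epithelium, rose by 1.23, from 100.2 and 128 CPM to 288 and 248 CPM, opposite to Lef1 and Tcf7. Sfrp4, a Wnt inhibitor, had no read in the 4 libraries, and Sox17, an endoderm factor, had 0 and 1 reads in either medium.

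Noggin and EGF act on the BMP and EGF pathways. Of 19 BMP pathway genes 5 rose and 2 fell (10.5%, against 8.24% of all tested genes). The direct targets Id1 and Id3 went from 3.34 and 2.37 CPM to 20.4 and 11.3 CPM and from 0.717 and 0.769 CPM to 6.07 and 5.21 CPM, and rose by 2.46 and 2.91. The feedback inhibitor Smad7 rose by 2.21 and the ligand Bmp2 by 2.41, from 16.2 and 13.6 CPM to 95.3 and 63.2 CPM, while the ligand Bmp7 fell by 2.08. Receptors of the EGF family rose: Egfr by 1.42, Erbb2 by 1.36 and Erbb3 by 1.38, with the ligand Hbegf at 1.34. Errfi1, which blocks the EGF receptor kinase, rose by 2.28, and Lrig1, which degrades the receptor and marks stem cells, fell by 1.54. Over 13 EGF family genes 5 rose and 1 fell (7.69%). MAPK feedback and output genes had no common direction, with 6 of 22 that rose, 3 that fell and a median of 0.25 that became -0.08 with library totals alone. Dusp5, an ERK phosphatase, rose by 2.48 and Etv4, an ERK output, fell by 1.29, and Dusp6 changed by 0.90 (adjusted p = 0.00539), under the fold needed.

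In the metabolic lists most genes were not called. Of 24 genes of fatty acid oxidation and its PPAR regulators 8 rose and none fell, and the median was 0.96. Cpt1a, the gate of mitochondrial import, went from 90.5 and 89.4 CPM to 227 and 219 CPM (1.31). Of 25 genes of cholesterol synthesis and its control 9 rose and none fell, with a median of 0.87. Cyp51, Fdft1 and Sqle, enzymes of the sterol route, rose by 1.26, 1.29 and 1.03, and Insig1, the feedback protein, by 1.41. Their promoters held CCAAT in 15 of 17 (88.2%), against 36.7% of all. Of 23 glycolysis genes 4 rose (17.4%) and 1 fell (4.35%), against 8.73% and 8.24% of all tested genes. Their median of 0.32 was -0.03 with library totals alone. The glucose transporter Slc2a1 went from 118 and 110.1 CPM to 483 and 426 CPM and rose by 1.99. Cpt1a, Cyp51 and Fdft1 passed the adjusted p but not the fold with library totals alone. The same held for Pmvk (0.88), Hk2 (0.91) and Ldha (0.68), which were called in the main fit. Ldha also missed the fold with at least 10 counts required in every library (0.95).

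In the stress and defence lists fewer than a majority of genes were called. Of 22 genes of the amino acid response 3 rose (13.6%, against 8.73% of all tested genes), with a median of 0.31 (-0.05 with library totals alone). The call of Chac1 was lost when any of the 4 libraries was left out. Those of Atf3 and Atf5 were lost in 3 of these 4 cases each, all except the case without WENR-minus replicate 1 for Atf3 and without WENR-plus replicate 1 for Atf5. Their regulator Atf4 stood at 154 and 137 CPM against 174 and 207 CPM (0.38, adjusted p = 0.260). Of 20 p53 targets 4 rose (20%) and 3 fell (15%), against 8.73% and 8.24% of all tested genes. The death receptor Fas rose by 3.47, from 0.382 and 0.414 CPM to 5.02 and 3.96 CPM, and Eda2r, another receptor of the TNF family, fell by 2.21. Of 17 host defence genes 5 rose and none fell. Saa1, called in the main fit, was not called in the fit of the compared libraries alone (2.38). Its change was 1.25 without WENR-minus replicate 1. Irf7 and Ifit1, interferon genes, rose by 2.64 and 2.78, but Ifit1 lost its call when any of the 4 libraries was left out and Irf7 did so in 3 of these 4 cases, all except the case without WENR-minus replicate 2. Of 20 genes of the fetal and YAP list 8 rose, with Msln at 2.34, the interleukin antagonist Il1rn at 2.03 and Anxa1 at 1.19, while Ly6a, the marker Sca-1 of regenerating epithelium, changed by 0.61 (adjusted p = 0.101). Of 13 mitochondrially encoded protein genes 1 rose (7.69%, against 8.73% of all tested genes) and 12 were not called. The gene that rose was mt-Co3, by 1.19, from 458 and 775 CPM to 1468 and 1336 CPM. Its change was under 1 without WENR-plus replicate 1.

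The genes with the largest changes among those with at least 5 CPM in the higher medium were only partly in these lists. On the falling side were Ptpro, a receptor tyrosine phosphatase, with 188 and 100 reads against 1 and 3 (at least 43.5-fold lower), and Cyp1a1, the cytochrome P450 of the aryl hydrocarbon receptor, with 25.1 and 18.8 CPM against 0.310 and 0.677 CPM (fell by 5.42, SE 0.62, adjusted p = 0.000282). Ank2, an ankyrin adaptor, fell by 5.26, a call lost with length-scaled counts, and Rgcc, a regulator of the cell cycle, fell by 3.93, from 62.9 and 55.9 CPM to 2.35 and 5.37 CPM. The predicted genes Gm45889 and Gm32742 fell by 5.26 and 4.91. On the rising side, Ptk6, a kinase of differentiated gut epithelium, had 0 and 2 reads against 117 and 53 (at least 31.2-fold higher). Slc51a and Slc51b, both subunits of the basolateral bile acid exporter, went from 0.191 and 0 CPM to 7.13 and 7.30 CPM and from 0.908 and 0.651 CPM to 11.8 and 13.5 CPM, and rose by 6.04 and 4.00. The size for Slc51a rests on 4 and 0 reads in WENR-plus, and the 9.90 fitted without WENR-plus replicate 1, against 0 reads, depends on the prior count. Slc3a1, part of the cystine transporter, went from 0.956 and 1.24 CPM to 84.8 and 31.3 CPM and rose by 5.72. Prl2a1 had 1 and 0 reads against 138 and 51 (at least 34.9-fold higher), and it belongs to the prolactin family, whose copies can share reads. Among the lowest p-values were also Cideb, a lipid droplet protein (3.65, SE 0.21, adjusted p = 1.05e-05), Aoc1, the diamine oxidase (3.59, SE 0.24, adjusted p = 3.46e-05), and Cyp3a13 (5.17, SE 0.40, adjusted p = 7.02e-05).

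The same withdrawal in distal Scramble-sgRNA organoids, 4 other libraries of the same design, called more genes: 1872 rose (12.2%) and 2167 fell (14.2%). Of the genes called in proximal organoids 529 were not called in distal ones, but a difference between the responses was called for 2 of these 529. Over all genes the test of the difference called 11 (0.0719%), 5 with the higher change in proximal organoids (0.0327%) and 6 with the lower (0.0392%), and 1503 had an unadjusted p under 0.05. The count was 159 by DESeq2, 454 without a filter and 3 with only the compared libraries. A replicate block per culture, chosen after seeing the data, gave 199. With library totals alone 13 genes had the higher change and 6 the lower. The number rested on single libraries, with 0 genes called by edgeR without proximal replicate 2 of either medium and 17 without distal WENR-plus replicate 1, and on the pairing, with 20 in a fit with a replicate block. Car4 had 2.15 and 0.914 CPM in distal WENR-plus and 401 and 257 CPM in distal WENR-minus, beside proximal values that stayed under 5 CPM, a difference of -6.65 (SE 0.74, adjusted p = 0.0109). Atp12a, the colonic proton and potassium pump, went from 89.4 and 45.1 CPM to 1002 and 998 CPM in distal organoids and from 4.59 and 4.02 CPM to 5.52 and 4.12 CPM in proximal ones, a difference of -3.74 (SE 0.48, adjusted p = 0.0222). Usp2, a deubiquitinase, went in opposite directions, from 2.68 and 4.79 CPM to 0.806 and 0.730 CPM in proximal and from 2.60 and 1.18 CPM to 12.8 and 15.3 CPM in distal organoids. In the other direction, Akr1c19, an aldo-keto reductase, went from 19.2 and 19 CPM to 199 and 181 CPM in proximal organoids and stood at 42.9 and 35.4 CPM against 46.0 and 44.0 CPM in distal ones. Itga2, the collagen-binding integrin, had 149 and 154 CPM against 262 and 277 CPM in proximal organoids and 226 and 214 CPM against 84.6 and 83.6 CPM in distal ones, a difference of 2.22.

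**Figure D4:**
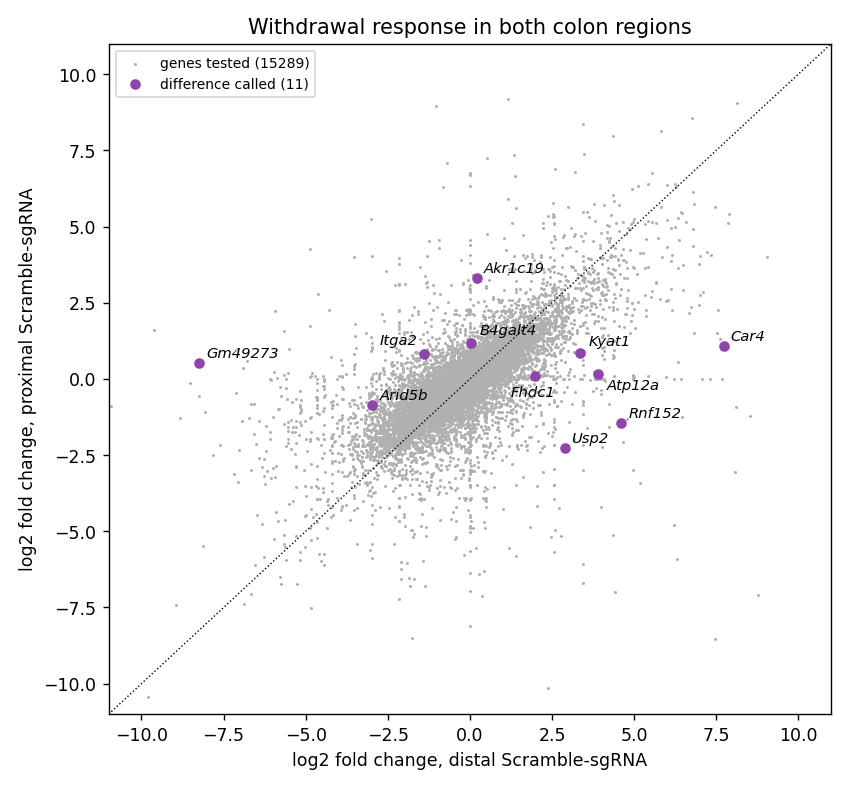
Log2 fold change of each tested gene on withdrawal in distal (x axis) and proximal (y axis) Scramble-sgRNA organoids. Purple points are the 11 genes whose difference was called, and the dotted line marks equal changes. Car4, Atp12a, Kyat1, Fhdc1, Rnf152 and Usp2 lie below the line and Akr1c19, B4galt4, Itga2, Arid5b and Gm49273 above it.

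The proximal Cdx2-sgRNA organoids changed less, with 523 genes that rose (3.42%) and 455 that fell (2.98%), together 6.40%. These libraries stood apart in the nuclear RNAs Malat1 and Neat1. Both together took 1.30% to 1.74% of counts outside mitochondrial ribosomal RNA, against 0.224% to 0.600% in proximal Scramble-sgRNA organoids. The shares of mitochondrial ribosomal RNA overlapped, at 20.4% to 28.0% against 15.4% to 21.2%, and distal Scramble-sgRNA libraries held 20.2% to 24.2%. With mitochondrial ribosomal RNA removed, the difference was called for 621 genes. The part of Malat1 and Neat1 was not tested. Frameshift mutations need not lower the mRNA, so Cdx2 counts do not show whether the protein was lost. The test of the difference from Scramble-sgRNA organoids called 550 genes (3.60%), 295 with the higher change in Scramble-sgRNA organoids (1.93%) and 255 with the lower (1.67%), and 829 in the fit with a replicate block. It called 52, 56 and 53 without Scramble-sgRNA WENR-plus replicate 1, WENR-plus replicate 2 or WENR-minus replicate 1, 834 without Scramble-sgRNA WENR-minus replicate 2, and 64 and 161 without Cdx2-sgRNA replicate 2 of WENR-minus or WENR-plus. Of the 550 genes, 201 had risen on withdrawal in Scramble-sgRNA organoids and 168 had fallen. Of the cycle lists, 18 S phase and 16 G2M genes had a difference called, all with the lower change in Scramble-sgRNA organoids. Mki67 stood at 269.8 and 273 CPM in WENR-plus and 296 and 406 CPM in WENR-minus with Cdx2-sgRNA, a difference of -2.42 (SE 0.56, adjusted p = 0.0396). Of 30 colonocyte genes 9 had a higher change in Scramble-sgRNA organoids. Car1 was at 22.4 and 17.0 CPM against 19.9 and 11.4 CPM with Cdx2-sgRNA, a difference of 5.72 (SE 0.54, adjusted p = 0.00147), and Cyp2c55 at 11.6 and 14.5 CPM against 9.95 and 10.6 CPM, a difference of 4.00 (SE 0.24, adjusted p = 4.69e-05). Vil1 stood at 168 and 132 CPM against 212 and 180.5 CPM, a difference of 1.29 (adjusted p = 0.0302). No difference was called for Axin2. It went from 164 and 186 CPM to 31.7 and 19.3 CPM with Cdx2-sgRNA, and the difference was -0.26 (SE 0.46, adjusted p = 0.822). The median of the Wnt target list was -1.20 with Cdx2-sgRNA, against -1.99, and that of the S phase list -0.14, against -1.99.

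**Figure D5:**
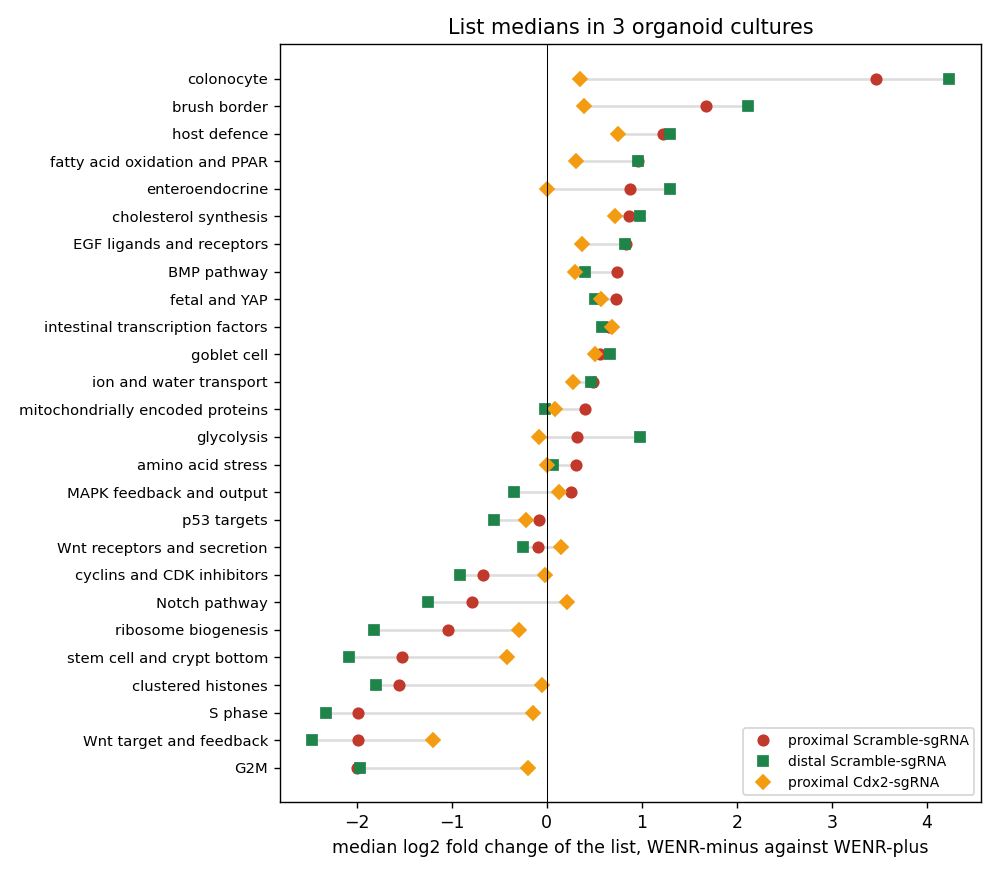
Median log2 fold change of each gene list on withdrawal in proximal Scramble-sgRNA (red circles), distal Scramble-sgRNA (green squares) and proximal Cdx2-sgRNA organoids (orange diamonds). The colonocyte list has medians of 3.47, 4.24 and 0.35 and the G2M list of -2.00, -1.97 and -0.20. With library totals alone the proximal Scramble-sgRNA medians of the MAPK, amino acid stress and glycolysis lists lie below 0.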

How the data were processed

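RNA of organoids was read as SMARTer stranded total RNA libraries. Salmon was run with its automatic detection of the library type, which sets the use of strand. The type it detected is not given in the sources used here. The deposited values are Salmon 1.1.0 estimated counts of each transcript, made by the authors on mm10 (GENCODE vM23 transcripts) and later tested by them with DESeq2 after tximport (version 1.32 in the submitters' processing notes, another in the supplement). The deposited tables also hold TPM and effective lengths from the authors' Salmon runs, used here for the levels of Lgr4 and Lgr5 and for length-scaled counts. Of 140748 transcripts 139864 were matched by identifier to GENCODE vM21 (GRCm38), summed to 54123 genes and rounded, and 884 were left out.

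In R 4.3.3 with edgeR 4.0.16, filterByExpr kept 15289 genes, scaling was by TMM, and glmQLFit and glmQLFTest were run over the 16 libraries with a coefficient for each group, a prior count of 0.125 and 8 residual degrees of freedom. Benjamini-Hochberg adjustment covered all tested genes, and calls needed an adjusted p under 0.05 and a log2 fold change beyond 1. The SE is the absolute log2 fold change over the root of the F statistic. Differences between responses are contrasts of the same fit, the proximal Scramble-sgRNA change minus the other. Where every library of a medium held at most 3 reads of a gene, a bound against 3 reads per library is given. With 2 replicates of each group, estimated counts carry quantification error beside counting error. The script was tested on simulated data.

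The replicate number marks the mouse by the methods, and deviations of same-numbered libraries from their group means correlated at 0.407 (proximal Scramble-sgRNA), 0.589 (proximal Cdx2-sgRNA), 0.281 and 0.404 (the distal cultures) over 15289 genes, so fits with a replicate block are given. The comparison and the gene lists were chosen with earlier results of these data known, and the histone and Wnt receptor lists and the block per culture were added after the values were seen. Named are genes the study itself singles out for these organoids, the 8 highest and 8 lowest called changes with at least 5 CPM and no overlap, up to 4 called members of each list with the lowest p and uncalled members that define a list, the lowest p-values over all genes, and the largest differences between cultures. Others in the text were chosen after their values were seen. Promoters are the 250 bases before RefSeq start sites, found for 10549 tested genes. Alternatives were RLE, library totals, 2 other filters, DESeq2 1.42.0, length-scaled counts, removal of mitochondrial ribosomal RNA, fits of the compared libraries alone, and leaving out each library.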

Additional observations from a re-analysis of the deposited data

Results flagged for a closer look

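The change on withdrawal differed between proximal and distal Scramble-sgRNA organoids for 11 genes, by the edgeR contrast of both responses. With the lower change in proximal organoids these were Car4 (-6.65), the ubiquitin ligase Rnf152 (-6.05) and Usp2 (-5.15), each with an adjusted p of 0.0109, Atp12a (-3.74, adjusted p = 0.0222), the kynurenine aminotransferase Kyat1 (-2.50, adjusted p = 0.0196) and the formin Fhdc1 (-1.87, adjusted p = 0.0387). With the higher change were the galactosyltransferase B4galt4 (1.14), the chromatin factor Arid5b (2.12) and Itga2 (2.22), each at an adjusted p of 0.0454, Akr1c19 (3.11, adjusted p = 0.0387) and Gm49273. The fitted 8.77 of Gm49273 (adjusted p = 0.0270) depends on the prior count, because it had 0 reads in both distal WENR-minus libraries.

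Between Scramble-sgRNA and Cdx2-sgRNA proximal organoids the change differed for 550 genes. The flagged genes with the lower change in Scramble-sgRNA organoids were the transcription factor Atoh8 (-6.60, adjusted p = 0.00198), the membrane mucin Muc1 (-6.59, adjusted p = 0.0468), Rptn (-5.50, adjusted p = 0.0138) and Plet1 (-4.83, adjusted p = 0.0185). With Cdx2-sgRNA, Atoh8 went from 4.93 and 1.85 CPM to 54.4 and 61.8 CPM, Rptn, a cornified envelope protein, from 2.90 and 1.27 CPM to 71.8 and 43.5 CPM, and Muc1 from 0.754 and 1.48 CPM to 15.1 and 138 CPM. Those with the higher change in Scramble-sgRNA organoids were Slc9a3 (8.11, adjusted p = 0.0138), Adra2a (6.55, adjusted p = 0.0138), Zg16 (6.55, adjusted p = 0.0396), Tnfsf15 (6.29, adjusted p = 0.0419), Car1 (5.72, adjusted p = 0.00147), Slc3a1 (5.39, adjusted p = 0.0315) and Vil1 (1.29, adjusted p = 0.0302). Tnfsf15, a cytokine, had 0 reads in both Cdx2-sgRNA WENR-minus libraries, so its fitted value also depends on the prior count.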

How the results depend on the processing

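No direction of a followed gene changed: of 1557 values of 113 genes under the alternatives, 1492 kept direction and call and 65 kept the direction but lost the call, and 81 genes held under every alternative. Followed genes were the study's own, the largest called changes and called list members with the lowest p, without those at the floor. Most were thus chosen for strong calls, which favours stability. Only the withdrawal change was followed, so no gene's difference between cultures is covered. The counts of withdrawal genes, 1335 that rose and 1260 that fell, became 2513 and 1977 by the adjusted p alone and 749 and 2206 with library totals alone. Other scalings, DESeq2 and length-scaled counts stayed within 1.5 times. Leaving out 1 library gave 944 to 1460 genes that rose and 596 to 1156 that fell, both lowest without WENR-minus replicate 1.

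The difference from distal organoids, 11 genes, became 19 with library totals, 454 without a filter, 159 by DESeq2 and 3 with only the compared libraries, and ranged from 0 to 17 with 1 library left out. The difference from Cdx2-sgRNA organoids, 550 genes, became 933, 1596, 1166 and 82 under the same settings and 362 with length-scaled counts, with 52 to 834 on leaving out 1 library. The cause was not tested. With a replicate block the counts were 20 and 829, and with a replicate block per culture, chosen after seeing the data, 199 and 1596. The withdrawal counts under both blocks stayed within 1.5 times of those without, at 1393 and 1349, then 1570 and 1690. With 2 libraries of each medium, genes under a few reads per library are limited by depth.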
